A study of Bos taurus with 8 samples.

Results

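RAB proteins are small GTPases of the RAS superfamily that mark the membranes of the cell and direct the traffic of vesicles between them. Each one cycles between a GTP-bound form, which recruits effectors such as tethers and motors, and a GDP-bound form that is taken off the membrane. Exchange factors load GTP, GTPase-activating proteins speed its hydrolysis, and a geranylgeranyl lipid added to the C terminus anchors the protein. In oocytes and early embryos such traffic serves the cortical granules, the uptake of membrane and the supply of surface for cleavage.

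The 46 RAB genes described here are the symbols made of RAB, a number and at most 1 letter that had a mean of at least 1 CPM (reads per 1000000 reads) over 8 libraries of bovine embryos. The table held 55 such symbols among 16606 genes, and 12129 genes reached the same minimum. The 9 RAB genes below it (RAB36, RAB42, RAB19, RAB43, RAB40B, RAB38, RAB29, RAB26 and RAB3A) had means from 0.0145 to 0.801 CPM. The members closest above it were RAB39B at 1.03 and RAB9B at 1.35 CPM, and the closest below it were RAB3A at 0.801 and RAB26 at 0.797 CPM. The 9 genes were not tested.

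The libraries formed 4 groups of 2: control embryos and embryos edited in RPL12, a protein gene of the large ribosomal subunit, at the 4-cell or the 8-cell stage. All embryos came from abattoir oocytes matured and fertilised in vitro. Titles were followed for the stage, since the source name of the 4-cell libraries reads oocytes. Edited embryos had received PEmax, a prime editor made of a Cas9 nickase and a reverse transcriptase, with a guide RNA into the cytoplasm of the zygote; the edit is named A148G. Sample titles call these embryos base edited. Each library pooled 5 embryos, and the labels leave unsaid whether controls were injected, what share of alleles carried the edit, and whether the pools of a group came from separate fertilisations. P-values thus measure only the spread between these pools.

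Library totals ranged from 33527531 to 35122409 reads, so that 3 reads correspond to 0.0858 to 0.0899 CPM. RPL12 itself lay at 159 and 174 CPM in 4-cell controls against 27.5 and 33.6 in 4-cell edited libraries, and at 96.3 and 97.6 CPM against 14.1 and 11.9 at the 8-cell stage. Of 14 oocyte and early embryo markers 13 were in the table. Their summed level was 19465 and 26056 CPM in 4-cell controls and 49360.5 and 58031 CPM in 4-cell edited libraries. At the 8-cell stage it was 50372 and 37253 CPM in controls and 52539 and 55608 CPM in edited libraries. With editing 6 of the 13 were higher and 0 lower in 4-cell embryos, and 2 and 0 in 8-cell embryos. The shares higher were 46.2% and 15.4%, against 18.9% and 1.08% of all genes tested. Markers of cumulus and granulosa cells were also present and were lower in sum in edited libraries. Their summed level over all 24 listed genes was 4607 and 7375 CPM in 4-cell controls, 1749 and 2417 CPM in 4-cell edited libraries, 3711 and 3395 CPM in 8-cell controls and 629 and 1223 CPM in 8-cell edited libraries. LUM, a matrix proteoglycan, supplied much of this sum. Without it the levels were 1729 and 1409.7 against 466 and 520.1 CPM at the 4-cell stage and 659 and 947 against 509 and 474 CPM at the 8-cell stage. Among the 21 of them that were tested, 15 were lower and 2 higher with editing in 4-cell embryos, and 9 were lower in 8-cell embryos. The shares lower were 71.4% and 42.9%, against 25.8% and 14.5% of all genes tested. HAS2 stood at 24.3 and 55.4 CPM in 4-cell controls and higher, at 132 and 124 CPM, in 4-cell edited libraries. GREM1 stood at 3.39 and 3.34 against 8.42 and 7.93 CPM. The markers FOXL2 and AMHR2 stayed at or below 0.464 and 0.616 CPM in every library, and 4 leukocyte markers summed to at most 4.55 CPM. The level of these markers entered 1 fit below as a covariate, which separates it poorly from editing. The part of these cells in the RAB results was thus not tested apart from editing. In pooled embryos fewer cells of a type and less RNA per cell cannot be told apart.

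**Figure D1:**
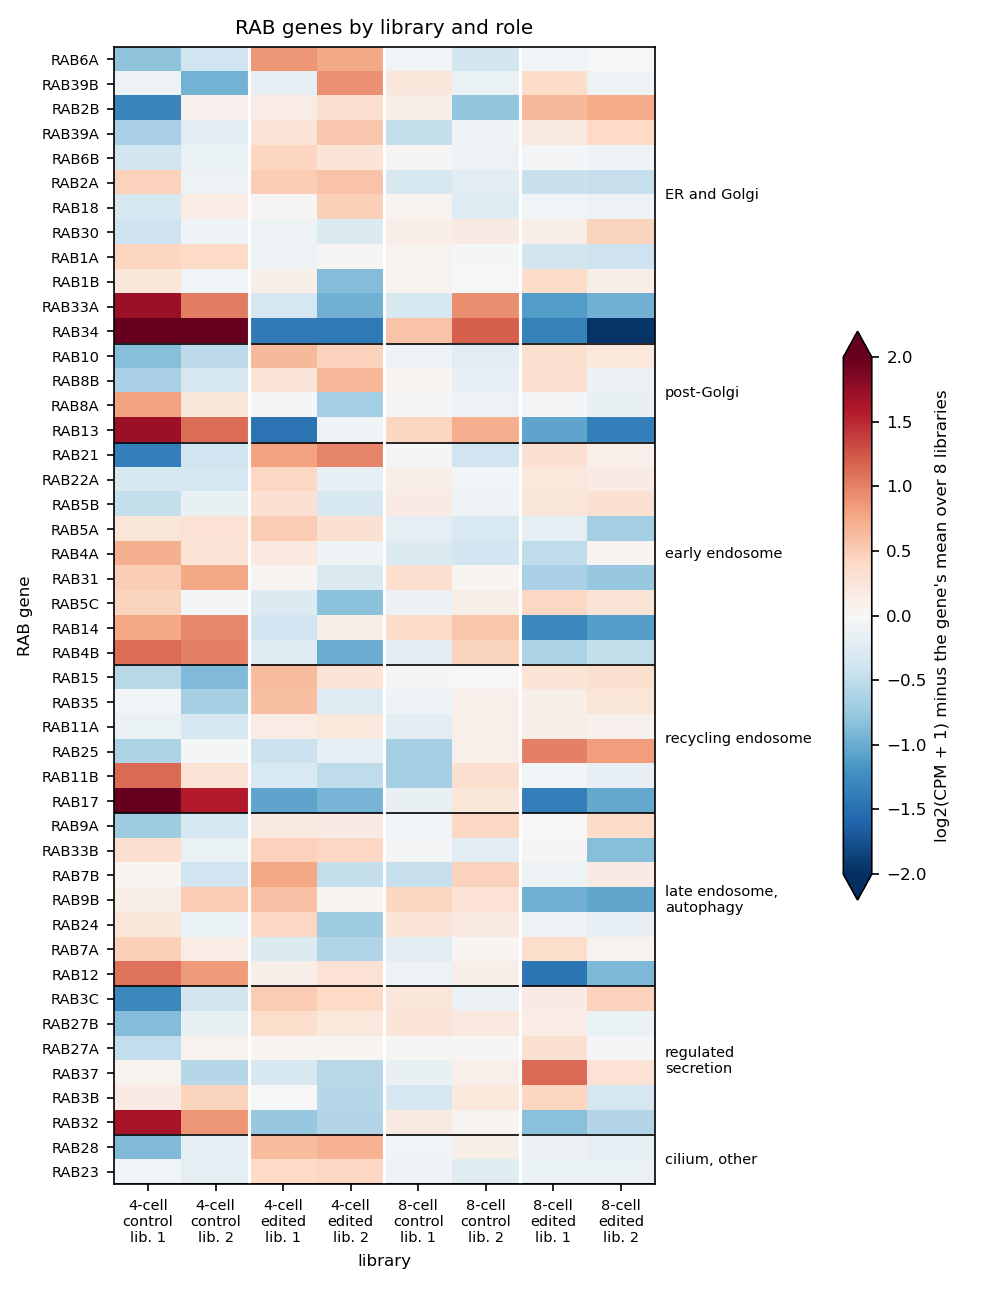
Level of each of the 46 RAB genes (rows, grouped by the compartment the protein is known for) in each of the 8 libraries (columns), as log2(CPM + 1) minus the gene's mean over the libraries; red is above and blue below that mean, and colours saturate at 2. RAB34, RAB17, RAB32, RAB13 and RAB33A are red in both 4-cell control libraries, whereas RAB6A, RAB21, RAB28 and RAB3C are red in both 4-cell edited libraries.

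RAB11A, which drives recycling from the recycling endosome to the surface, took the most reads of the family. It stood at 1123 and 979.5 CPM in 4-cell controls, 1366 and 1426 CPM in 4-cell edited, 1055 and 1321 CPM in 8-cell control and 1349 and 1300.5 CPM in 8-cell edited libraries. The 4-cell groups did not overlap, yet the log2 difference of 0.41 (SE 0.207) did not pass the test, with an adjusted p of 0.119 by limma. CPM are not divided by transcript length, so that levels are compared only between libraries and not between genes. Together the 46 genes took 0.353% and 0.362% of the reads in 4-cell controls and 0.436% in both 4-cell edited libraries. At the 8-cell stage they took 0.362% and 0.368% in controls and 0.401% and 0.393% in edited libraries. Without RAB11A the shares were 0.242% and 0.264% against 0.299% and 0.293% at the 4-cell stage, and 0.257% and 0.236% against 0.267% and 0.264% at the 8-cell stage.

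Editing was compared with control first at the 4-cell stage. Of the 46 RAB genes 9 were higher and 11 lower in edited embryos at an adjusted p under 0.05 by limma, and 26 were not called. The share of 43.5% lies next to the 44.7% called among all 12129 genes tested, and so does each direction, with 19.6% of RAB genes higher against 18.9% of all genes and 23.9% lower against 25.8%. The libraries of the groups did not overlap in 18 RAB genes that lay above (33.5% of all genes) and 16 that lay below (37.5%), together 73.9% against 71.0% of all genes. On the log2 scale the family had a median change of 0.20, against -0.02 for all genes tested. The family median was 0.36 with quantile normalization and 0.43 with median centring, where that of all genes was 0.23 and 0.22. With the marker covariate named below the family median turned to -0.25, against -0.10 for all genes. Log2 fold changes are differences of log2(CPM + 1) and understate the change of genes at a few CPM. All 20 called genes kept their direction in every alternative tried, and 11 of them stayed called in each one except a fit with the cumulus and granulosa marker level as a covariate. In that fit 0 of the 46 passed by limma, with 8 at an unadjusted p under 0.05, and 19 of all genes tested passed. The covariate, a mean of standardised marker levels, lay at 0.12 to 0.78 in control and at -0.62 to -0.19 in edited libraries. It thus follows the editing groups, and this fit separates it poorly from editing. Without the covariate edgeR called 17 RAB genes and DESeq2 20. All alternatives reuse the same libraries, so that a kept direction was largely fixed beforehand. Without the first 4-cell control library 13 were called. Centring each library on its median shifted the median of all genes by 0.24 and turned the split of RAB calls from 9 higher and 11 lower to 15 higher and 7 lower; quantile normalization gave 12 and 8.

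Transcripts that were higher at the 4-cell stage came from each compartment group. RAB6A, which acts in transport through the Golgi and back to the endoplasmic reticulum, stood at 65.9 and 87.4 CPM in control libraries and at 214 and 196 CPM in edited ones. The edited libraries were 2.67-fold higher than controls on the mean, and the log2 difference of 1.42 (SE 0.231) had an adjusted p of 0.000149 by limma. Its paralog RAB6B went the same way without passing (9.71 and 11.6 against 17.6 and 15.6 CPM, limma adjusted p 0.138).

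RAB10, a GTPase of exocytic and basolateral carriers, stood at 140.1 and 176 CPM in controls and at 397 and 348 CPM in edited embryos (log2 difference 1.24, SE 0.211, limma adjusted p 0.00023). RAB8B, which serves post-Golgi carriers as well, rose from 40.8 and 50.5 to 77.8 and 103 CPM (0.96, SE 0.259, limma adjusted p 0.00666). In both genes each edited library lay above each control library. RAB21, an early endosomal GTPase that carries integrins, had the largest log2 fold change among the higher RAB genes in this comparison. It stood at 16.7 and 33.7 CPM in controls and at 78.6 and 88.8 CPM in edited libraries (1.77, SE 0.307, limma adjusted p 0.000258), and the control libraries differed more from each other than the edited ones.

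RAB3C, of the family that acts in regulated exocytosis, stood at 29.5 and 56.9 CPM in controls and at 106 and 97.3 CPM in edited embryos (log2 difference 1.29, SE 0.289, limma adjusted p 0.00195). RAB27B, another secretory GTPase, stood at 34.4 and 57.2 against 81.1 and 73.6 CPM (0.79, SE 0.267, limma adjusted p 0.0246). RAB27A had a control library at 71.7 and one at 107 CPM, edited libraries both at 105 CPM, and no call (0.26, limma adjusted p 0.417). RAB27A and RAB27B thus shared a sign but not a call, and the difference between them was not tested.

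RAB28, which is linked to cilia, stood at 12.7 and 21.3 CPM in controls and at 38.5 and 39.9 CPM in edited libraries (log2 difference 1.20, SE 0.30, limma adjusted p 0.00409), and without the first 4-cell control library it was no longer called. RAB15, an endosomal recycling GTPase, stood at 12.5 and 9.85 against 30.0 and 22.9 CPM (1.17, SE 0.299, limma adjusted p 0.00493). RAB9A, which serves retrieval from late endosomes to the Golgi, was the ninth of the higher genes, at 74.5 and 97.0 against 139 and 138 CPM (0.70, SE 0.244, limma adjusted p 0.0284). None of the 9 had overlapping groups. Calls made on these same libraries favour such a gap, here and among the lower genes, so it adds no separate support. The calls of RAB9A and RAB27B were lost without the first control or either edited 4-cell library, and that of RAB8B without the second edited 4-cell library.

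Larger changes were seen among the genes that were lower. RAB34, known for the positioning of lysosomes and for cilium formation, stood at 68.1 and 66.6 CPM in 4-cell controls and at 4.63 and 4.62 CPM in edited embryos. Controls were 14.6-fold higher on the mean, the log2 fold change was -3.60 (SE 0.342), and the adjusted p was 1.42e-06 by limma, the smallest of the family. RAB17, a GTPase of polarised epithelial cells, stood at 15.6 and 6.71 CPM in controls and at 0.231 and 0.351 CPM in edited libraries (-3.13, SE 0.428, limma adjusted p 3.37e-05). Those edited values rest on 8 and 12 reads.

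RAB32, which acts on melanosomes and other lysosome-related organelles and on mitochondria, stood at 270.2 and 158 CPM in controls and at 50.1 and 56.7 CPM in edited embryos (log2 difference -1.93, SE 0.265, limma adjusted p 3.38e-05). RAB13, of tight junctions and post-Golgi carriers, stood at 55.1 and 36.3 against 5.15 and 15.2 CPM (-2.20, SE 0.407, limma adjusted p 0.000452). RAB33A, a Golgi-associated GTPase, went from 6.17 and 3.43 to 0.723 and 0.117 CPM, the last of these being 4 reads (-2.02, SE 0.462, limma adjusted p 0.00219). In each of these 3 genes the lower control library was still above the higher edited one.

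The other genes called lower were RAB4B, RAB14, RAB8A, RAB7A, RAB11B and RAB5C, all with endosomal or post-Golgi roles. RAB4B, of rapid recycling from early endosomes, stood at 15.4 and 14.3 CPM in controls and at 5.38 and 2.81 CPM in edited embryos (log2 difference -1.68, SE 0.388, limma adjusted p 0.00235). RAB14, which works between the Golgi and early endosomes, stood at 43.7 and 50.2 against 19.1 and 27.3 CPM (-1.003, SE 0.289, limma adjusted p 0.01004), a call lost without the second control or the first edited 4-cell library. RAB7A, the GTPase of late endosomes and lysosomes, stood at 82.8 and 65.5 against 48.8 and 38.7 CPM (-0.75, SE 0.254, limma adjusted p 0.0247). Both edited libraries lay below both controls in each of these genes.

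RAB8A stood at 72.1 and 48.4 CPM in controls and at 40.0 and 25.2 CPM in edited libraries (log2 difference -0.87, SE 0.289, limma adjusted p 0.0216). RAB11B stood at 10.5 and 5.37 against 3.24 and 2.69 CPM, and RAB5C, an early endosomal GTPase, at 41.8 and 29.9 against 25.05 and 16.8 CPM, with log2 fold changes of -1.11 and -0.76 and limma adjusted p-values of 0.0447 and 0.046. Calls of RAB8A, RAB7A, RAB11B and RAB5C were lost with median centring and without the first control or the second edited 4-cell library, and those of RAB11B and RAB5C held in 6 of 18 and 6 of 19 alternatives.

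**Figure D2:**
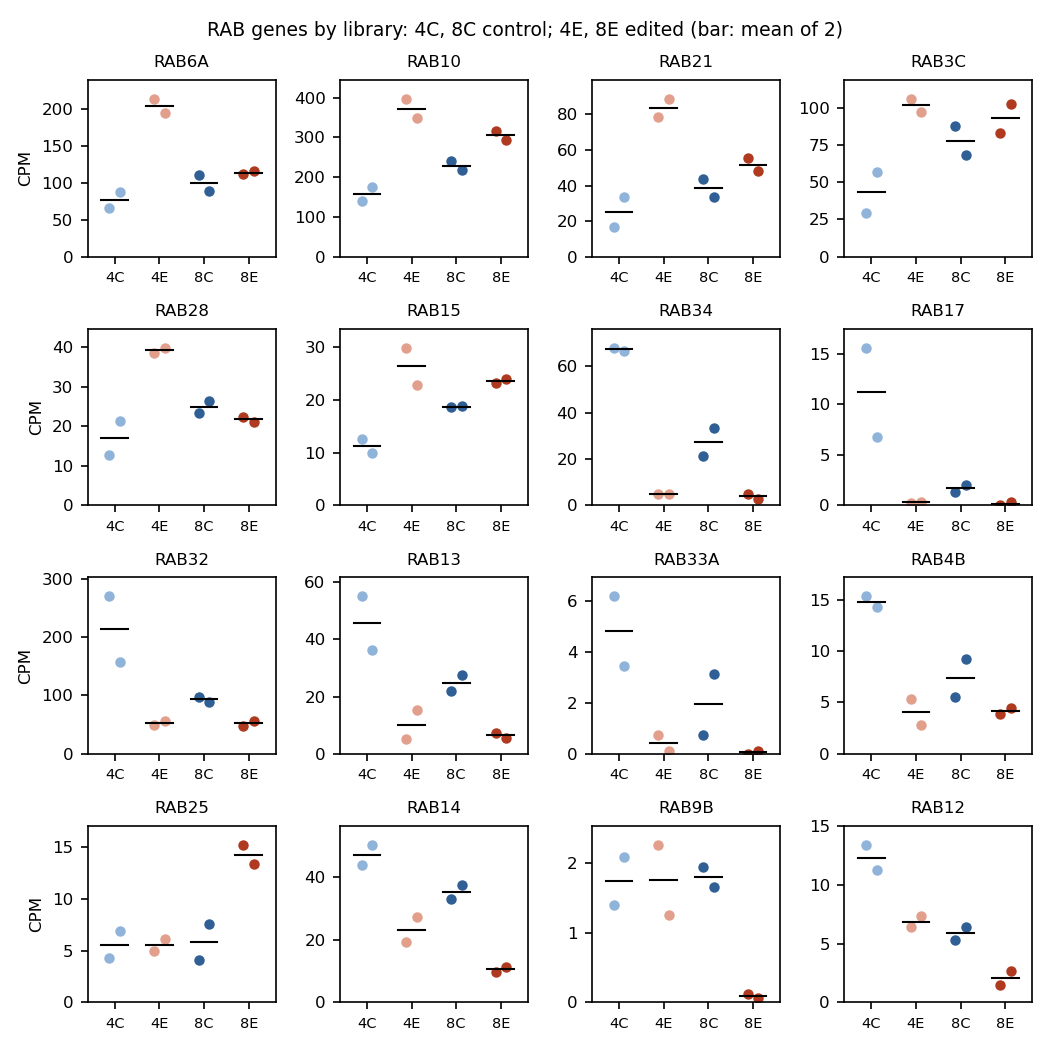
CPM of 16 RAB genes, the 6 per direction with the smallest p-values at the 4-cell stage and 4 more that were called at the 8-cell stage, in the 8 libraries (points; 4C and 8C are control, 4E and 8E edited embryos at the 4-cell and 8-cell stage; the bar is the mean of 2; each axis starts at 0). The first 6 panels show genes higher and the next 6 genes lower in 4-cell edited embryos, and the last row shows RAB25, RAB14, RAB9B and RAB12, which differed at the 8-cell stage.

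At the 8-cell stage 1 of the 46 RAB genes was higher and 6 were lower in edited embryos. The share of 15.2% again lies beside the 15.6% of all genes tested, of which 1.08% were higher and 14.5% lower. Groups did not overlap in 14 RAB genes that lay above (27.7% of all genes) and 15 that lay below (32.7%), together 63.0% against 60.4%. Without the second 8-cell control library, or without either 8-cell edited library, 3 RAB genes were called. With the marker covariate 0 were called by limma, with 3 at an unadjusted p under 0.05 and 1 of all genes tested called, while edgeR and DESeq2 called 7 and 9 without it. The split of 1 higher and 6 lower became 2 and 3 with median centring, 1 and 3 with quantile normalization and 0 and 7 with edgeR.

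RAB34 was lower at this stage too, at 21.2 and 33.5 CPM in controls and 4.87 and 2.88 CPM in edited embryos (log2 difference -2.54, SE 0.342, limma adjusted p 7.39e-05). RAB14 stood at 32.9 and 37.3 CPM in controls and at 9.77 and 11.2 CPM in edited libraries, where controls were 3.35-fold higher (-1.65, SE 0.289, limma adjusted p 0.000647). These calls held in every alternative but the marker covariate. RAB13 stood at 22.0 and 27.5 against 7.23 and 5.63 CPM (-1.79, SE 0.407, limma adjusted p 0.00531), and its call was lost without the second 8-cell control library.

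RAB32 stood at 97.1 and 89.0 CPM in 8-cell controls and at 47.3 and 56.8 CPM in edited embryos (log2 difference -0.83, SE 0.265, limma adjusted p 0.0426). RAB34, RAB14, RAB13 and RAB32 were the 4 members called at both stages, each lower at both. No count of all genes called at both stages is given here, so this number has no background beside it. The call of RAB32 at the 8-cell stage held in 6 of 19 alternatives and was lost without any 1 of the 4 8-cell libraries or of the edited libraries. RAB17 and RAB33A, lower at the 4-cell stage, had 8-cell control values of 1.32 and 2.04 CPM and of 0.744 and 3.13 CPM. Their edited libraries held 0 and 9 reads of RAB17 and 0 and 4 reads of RAB33A, and limma's adjusted p-values were 0.0639 and 0.0617.

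RAB12, RAB9B and RAB25 were called at the 8-cell stage and not at the 4-cell stage. RAB12, of recycling endosomes and autophagy, stood at 5.35 and 6.39 CPM in controls and at 1.49 and 2.64 CPM in edited embryos (log2 difference -1.19, SE 0.367, limma adjusted p 0.037). RAB9B, a paralog of RAB9A, had 68 and 56 reads (1.95 and 1.66 CPM) in controls and 4 and 2 reads in edited libraries (-1.36, SE 0.388, limma adjusted p 0.0231). Both calls were lost without either library of either 8-cell group, and the test of the difference between stages did not pass for either gene, with limma adjusted p-values of 0.663 and 0.15.

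RAB25, an epithelial relative of RAB11A, was the 1 member higher at the 8-cell stage. It stood at 4.12 and 7.63 CPM in controls and at 15.2 and 13.4 CPM in edited embryos (log2 difference 1.20, SE 0.384, limma adjusted p 0.044). In 4-cell libraries it lay between 4.26 and 6.86 CPM in controls and between 5.00 and 6.11 CPM in edited embryos, so that the 8-cell edited libraries were the highest of the 8. The call held in 11 of 19 alternatives and was lost with edgeR and without any 1 of the 4 edited libraries or the first 8-cell control library, and the difference of its effect between stages did not pass (1.18, limma adjusted p 0.207).

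**Figure D3:**
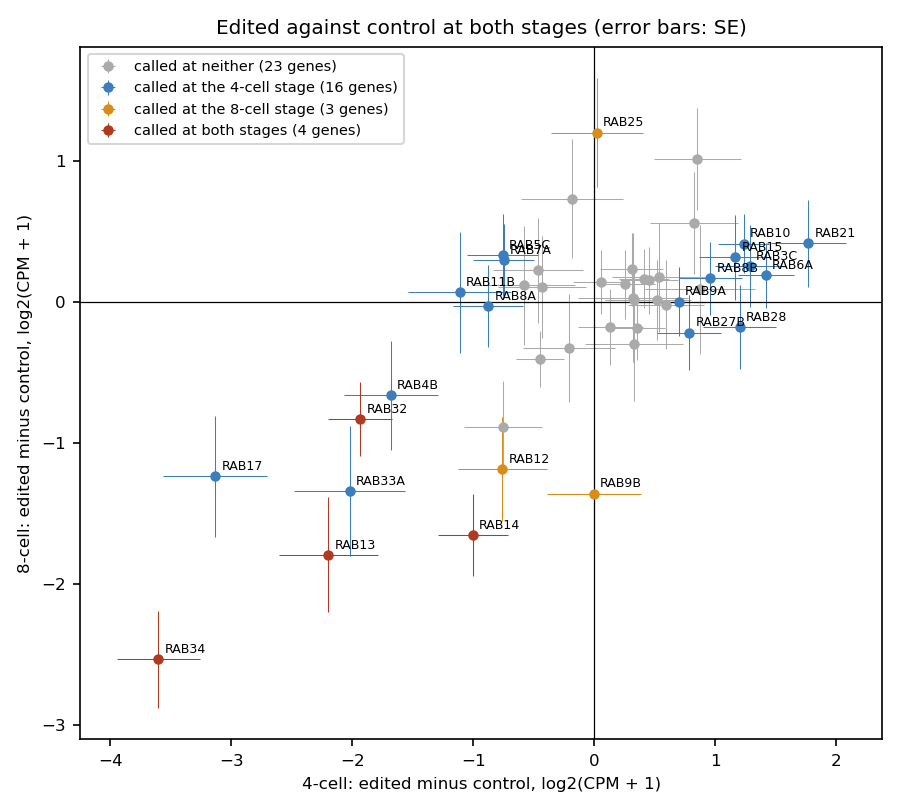
Edited minus control difference of log2(CPM + 1) at the 4-cell stage (x axis) and at the 8-cell stage (y axis) for the 46 RAB genes, with the standard error of each; colours give the stage at which the gene was called. RAB34, RAB13, RAB32 and RAB14 lie in the lower left quadrant and were called at both stages, while the genes called higher at the 4-cell stage, RAB21 and RAB6A among them, lie between -0.22 and 0.41 on the 8-cell axis.

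The difference of the editing effect between the stages was tested directly. It was called for 1 of the 46 genes, RAB6A (2.17% against 3.96% of all genes tested, with 1.95% positive and 2.00% negative). An unadjusted p under 0.05 by limma was found for 14 of the 46 RAB genes and for 2800 of all 12129 genes tested. RAB6A stood at 111 and 89.4 CPM in 8-cell controls and at 112 and 116 CPM in 8-cell edited embryos, a log2 fold change of 0.19 (SE 0.231) against 1.42 at the 4-cell stage. The difference of -1.23 (SE 0.326) had an adjusted p of 0.0461 by limma. This call held in 8 of 18 alternatives and was lost with edgeR, with the replicate number as a block, without the first control library of either stage and without each of the 4 edited libraries, whereas 9 RAB genes were called without the second 4-cell control library. RAB21, RAB28, RAB17, RAB32 and RAB7A had adjusted p-values between 0.0745 and 0.0996 for the difference and did not pass.

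Averaged over both stages 8 RAB genes were higher and 10 lower in edited embryos, 39.1% against 44.8% of all genes tested, of which 17.6% were higher and 27.2% lower. Median centring gave 17 higher and 9 lower, and the marker covariate left 0, with 6 at an unadjusted p under 0.05, where edgeR and DESeq2 each called 19 without it. In 13 members (28.3%, against 29.6% of all genes tested) the 4 edited libraries did not overlap the 4 controls. RAB6A, RAB10, RAB21, RAB15, RAB2B and RAB39A lay above in edited embryos (6 genes, against 9.98% of all genes), and RAB34, RAB13, RAB14, RAB17, RAB32, RAB33A and RAB4B below (7, against 19.6%). For RAB2B the gap was narrow: the edited libraries began at 305.4 CPM and the highest control library stood at 304.8 CPM. RAB2B, of traffic between the endoplasmic reticulum and the Golgi, had control libraries far apart, with 109.7 and 295 CPM at the 4-cell and 305 and 161 CPM at the 8-cell stage. It was not called at either stage alone and was called for the average (0.93, SE 0.255, limma adjusted p 0.00729).

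Stage was compared within control embryos. 3 of the 46 RAB genes were lower in 8-cell than in 4-cell embryos and 0 were higher, 6.52% against 9.02% of all genes tested (2.75% higher and 6.27% lower). Of the genes with a higher level 6 had an unadjusted p under 0.05 by limma, and edgeR and DESeq2 called 0 higher too. In either direction 13 of the 46 RAB genes and 3568 of all 12129 genes tested had an unadjusted p under 0.05 by limma. The split of 0 higher and 3 lower became 2 and 3 with quantile normalization and 1 and 3 with median centring. RAB17 went from 15.6 and 6.71 to 1.32 and 2.04 CPM (log2 difference -2.09, SE 0.428, limma adjusted p 0.0147), RAB32 from 270.2 and 158 to 97.1 and 89.0 CPM (-1.14, SE 0.265, limma adjusted p 0.0212) and RAB34 from 68.1 and 66.6 to 21.2 and 33.5 CPM (-1.31, SE 0.342, limma adjusted p 0.0319). The same 4-cell control libraries enter the comparison with 4-cell edited embryos. edgeR called 0 of the 46, with 11 at an unadjusted p under 0.05, DESeq2 called 3, and 0 were called without the first control library of either stage; without the second 4-cell control library 9 were called.

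In edited embryos 4 RAB genes were lower at the 8-cell stage and 0 higher. These are 8.70%, against 5.18% of all genes tested (1.45% higher and 3.73% lower). Of the RAB genes with a higher level 4 had an unadjusted p under 0.05 by limma. In either direction 12 of the 46 RAB genes and 2604 of all 12129 genes tested had such a p. edgeR called 0 higher and DESeq2 1, and median centring gave 1 higher and 2 lower. RAB2A, of traffic from the endoplasmic reticulum to the Golgi and of late endosomes, went from 184 and 193 to 94.7 and 93.9 CPM (log2 difference -0.99, SE 0.231, limma adjusted p 0.0253). RAB12 went from 6.39 and 7.34 to 1.49 and 2.64 CPM (-1.38, SE 0.367, limma adjusted p 0.0416), RAB14 from 19.1 and 27.3 to 9.77 and 11.2 CPM (-1.06, SE 0.289, limma adjusted p 0.0451) and RAB6A from 214 and 196 to 112 and 116 CPM (-0.84, SE 0.231, limma adjusted p 0.0459). Without any 1 of the 4 edited libraries 0 RAB genes were called, without either 8-cell control library 2, and edgeR called 1. Altogether 18 of the 46 genes were called in none of the comparisons, among them RAB5A, RAB5B, RAB11A, RAB18, RAB22A, RAB27A and RAB30. The same count over all genes is not given here.

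Among all genes tested at the 4-cell stage 18.9% were higher and 25.8% lower, and the calls of each compartment stand beside these shares with few genes per group. Of the 12 members of the endoplasmic reticulum and Golgi 1 was higher and 2 lower, of the 4 of post-Golgi carriers 2 and 2, of the 9 of early endosomes 1 and 3, of the 6 of recycling endosomes 1 and 2, of the 7 of late endosomes and autophagy 1 and 1, and of the 6 of regulated secretion 2 and 1. Of RAB23 and RAB28, grouped for cilia and other roles, RAB28 was higher. RAB34, also known for cilium formation, was counted with the endoplasmic reticulum and Golgi, where it was 1 of the 2 lower genes. The group medians lay between -0.43 for early endosomes and 0.86 for RAB23 and RAB28 on the log2 scale.

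Among textbook markers of compartments, 2 more were not called at either stage alone. RAB1A, needed for transport from the endoplasmic reticulum to the Golgi, stood at 442 and 435 CPM in 4-cell controls and 306 and 336 CPM in edited embryos, and at 344 and 321 against 256 and 245 CPM at the 8-cell stage. The groups did not overlap at either stage, with log2 fold changes of -0.45 and -0.41 and limma adjusted p-values of 0.076 and 0.202. Averaged over the stages it was called lower (-0.43, SE 0.14, limma adjusted p 0.0205), a call that held in 10 of 18 alternatives and was lost with edgeR and DESeq2, with median centring, and without the first library of the 4-cell edited or 8-cell control group or either 8-cell edited library. RAB5A, the early endosomal GTPase, stood at 43.7 and 45.1 against 52.6 and 45.3 CPM at the 4-cell stage and at 32.2 and 29.4 against 32.3 and 22.6 CPM at the 8-cell stage (limma adjusted p-values 0.716 and 0.715). RAB18, of lipid droplets and the endoplasmic reticulum, ranged from 129 to 225 CPM over the 8 libraries with overlapping groups at each stage.

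Genes that share a RAB number encode close paralogs, and 27 of the members fall into 13 such families. Members with calls in opposite directions were found in 1 family, that of RAB8A, which was lower, and RAB8B, which was higher at the 4-cell stage. At the 8-cell stage RAB8A stood at 40.4 and 38.1 against 39.9 and 36.9 CPM and RAB8B at 66.4 and 57.7 against 81.6 and 59.4 CPM, and neither was called. In 3 other families, RAB3, RAB6 and RAB27, 1 paralog was called higher at the 4-cell stage and the other was not called, and so it was for RAB9A and RAB9B. One paralog was called lower and the others were not in the RAB4, RAB5, RAB7, RAB11 and RAB33 families. In the RAB1, RAB2 and RAB39 families none was called at either stage. The difference between paralogs was not tested, and reads of close paralogs can be split by the counting.

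**Figure D4:**
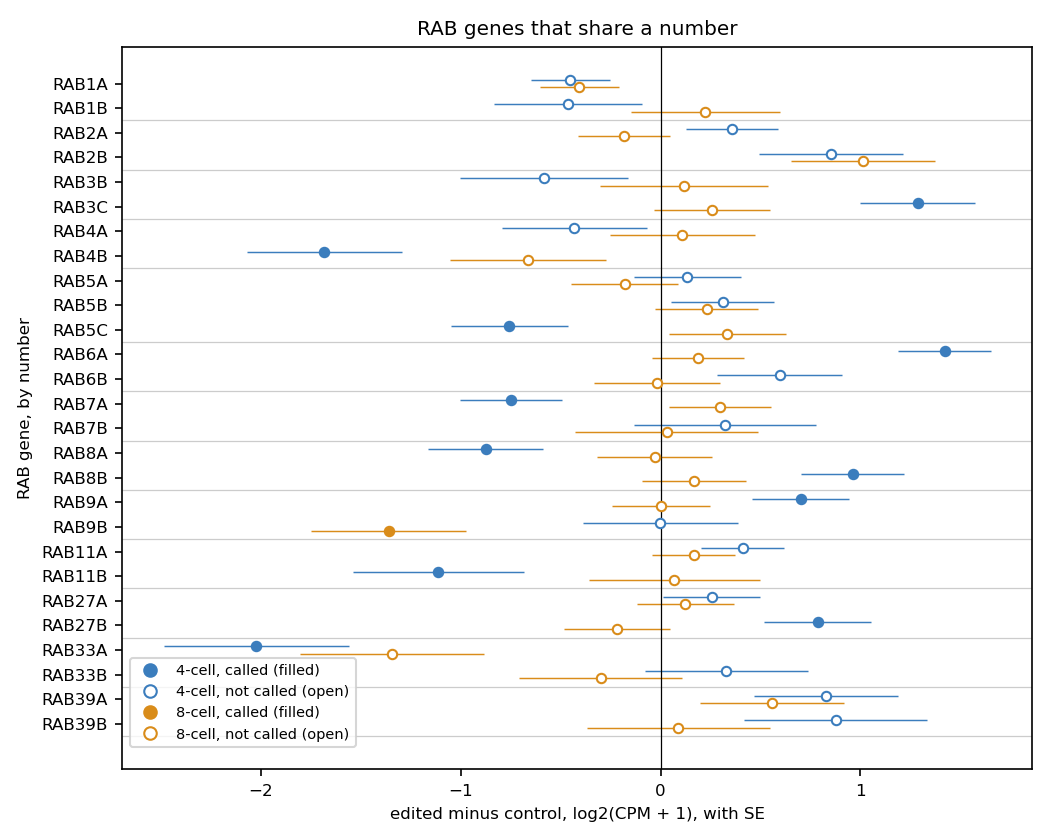
Edited minus control difference of log2(CPM + 1), with its standard error, for the 27 RAB genes in the 13 families that share a number, at the 4-cell (blue) and 8-cell stage (orange); filled points were called and open ones were not. RAB8A and RAB8B carry filled 4-cell points on opposite sides of 0, at -0.87 and 0.96.

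The proteins that lipidate and recycle RAB proteins formed 1 of the lists. Of its 15 genes 3 were higher and 8 lower in 4-cell edited embryos, and 0 and 5 in 8-cell ones, with medians of -1.22 and -0.41 on the log2 scale (all genes tested -0.02 and 0.00). These are 20% higher and 53.3% lower at the 4-cell stage, against 18.9% and 25.8% of all genes, and 33.3% lower at the 8-cell stage, against 14.5%. RABGGTA and RABGGTB, the alpha and beta subunits of the geranylgeranyl transferase of RAB proteins, were called in opposite directions at the 4-cell stage. RABGGTA stood at 31.3 and 20.4 CPM in controls and at 1.88 and 1.73 CPM in edited embryos (log2 difference -3.23, SE 0.456, limma adjusted p 4.49e-05). RABGGTB stood at 10.4 and 57.1 against 105 and 91.3 CPM (1.94, SE 0.493, limma adjusted p 0.0046), with control libraries that lay far apart; its call was lost with DESeq2 and without the first library of either 4-cell group, and those libraries also decide the 4-cell calls of CHM and CHML. At the 8-cell stage RABGGTA was again lower, at 6.18 and 12.9 against 0.628 and 2.73 CPM (-2.02, limma adjusted p 0.00503; not called without the second control or the first edited 8-cell library), and RABGGTB stood at 55.1 and 34.9 against 58.0 and 56.8 CPM (limma adjusted p 0.668).

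CHM and CHML, the escort proteins that present RAB proteins to this enzyme, were both higher at the 4-cell stage. CHM stood at 10.5 and 25.1 against 46.9 and 34.2 CPM (log2 difference 1.25, limma adjusted p 0.0107) and CHML at 3.42 and 5.45 against 13.2 and 10.7 CPM (1.27, limma adjusted p 0.0116). RABAC1, which binds lipidated RAB proteins at the Golgi, had the largest change of the list, from 738 and 468 to 33.1 and 50.2 CPM at the 4-cell stage (-3.81, SE 0.314, limma adjusted p 8.45e-07) and from 144 and 261 to 24.8 and 18.2 CPM at the 8-cell stage (-3.13, SE 0.314, limma adjusted p 6.94e-06). PRAF2, of the same protein family, was lower at both stages as well (-3.07 and -2.04, limma adjusted p-values 1.96e-05 and 0.00162).

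GDI2 and RABIF fall outside the rule for named genes and were chosen after their values were seen. GDI2, which extracts GDP-bound RAB proteins from membranes, stood at 349.8 and 497 against 622 and 523 CPM at the 4-cell stage and was not called (log2 difference 0.45, limma adjusted p 0.106). RABIF, a chaperone of nucleotide-free RAB proteins, stood at 12.7 and 6.51 against 1.74 and 1.05 CPM (-2.10, limma adjusted p 0.000819).

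**Figure D5:**
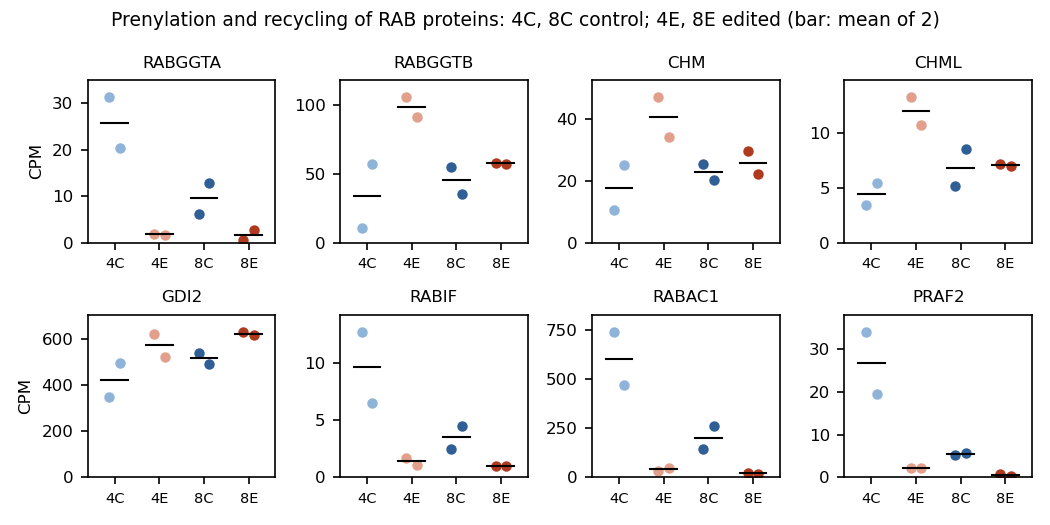
CPM of 8 genes whose proteins lipidate, escort, extract or bind RAB proteins, in the 8 libraries (points; 4C and 8C control, 4E and 8E edited embryos; the bar is the mean of 2; each axis starts at 0). RABGGTA, RABIF, RABAC1 and PRAF2 are lower in both 4-cell edited libraries than in both controls, and RABGGTB, CHM and CHML are higher.

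Exchange factors, GTPase-activating proteins and effectors were counted in the same way. Of 50 exchange factor genes tested 10 were higher and 9 lower in 4-cell edited embryos, and 0 and 5 in 8-cell ones. The shares called, 38.0% and 10.0%, lie below the 44.7% and 15.6% of all genes. The TRAPP complex, which activates RAB1 proteins, held genes of both kinds: TRAPPC5, TRAPPC4 and TRAPPC6A were lower at both stages (4-cell log2 fold changes of -3.19, -1.84 and -2.60, limma adjusted p-values 1.42e-05 to 0.000101; the 8-cell call of TRAPPC6A was lost without the second 8-cell control library), and TRAPPC2 was higher at the 4-cell stage (0.997, limma adjusted p 0.00199). RIN2, an exchange factor for RAB5 proteins, had the smallest p of the list at the 8-cell stage, at 16.1 and 18.8 CPM in controls against 2.63 and 1.08 CPM in edited embryos (-2.74, SE 0.363, limma adjusted p 6.34e-05).

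Among 35 GTPase-activating proteins 8 were higher and 3 lower in 4-cell edited embryos, and 0 and 4 in 8-cell ones, or 31.4% and 11.4% called against 44.7% and 15.6% of all genes. USP6NL, which inactivates RAB5 proteins, stood at 82.9 and 79.8 against 249 and 197 CPM at the 4-cell stage (log2 difference 1.43, SE 0.216, limma adjusted p 7.75e-05). TBC1D8B, of the same TBC domain family, was lower at the 8-cell stage, at 33.2 and 32.6 against 10.2 and 11.4 CPM (-1.53, SE 0.339, limma adjusted p 0.00457). Of 55 effectors 16 were higher and 5 lower in 4-cell edited embryos, and 0 and 3 in 8-cell ones. Of all effectors 38.2% and 5.45% were thus called, with 29.1% higher and 9.09% lower at the 4-cell stage against 18.9% and 25.8% of all genes. EEA1, the tether that RAB5 proteins bring to early endosomes, stood at 68.7 and 94.5 against 244 and 253 CPM at the 4-cell stage (1.61, SE 0.24, limma adjusted p 7.05e-05), and at 178 and 134 against 124 and 155 CPM at the 8-cell stage (-0.15, limma adjusted p 0.726). SYTL2, a partner of RAB27 proteins, was higher at the 4-cell stage (1.37, limma adjusted p 9.27e-05). RILPL2 and PLIN3, which bind RAB proteins of cilia and of late endosomes, were lower at both stages (-2.73 and -3.83 at the 4-cell stage, limma adjusted p-values 2.53e-06 and 4.80e-06), with 8-cell calls that were lost without the second control or the second edited 8-cell library.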

How the data were processed

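RNA was measured in 8 libraries, each of 5 pooled embryos. Per the submitters' processing notes Trim Galore 0.6.7, HISAT2 2.2.1 and featureCounts 2.0.1 were used; the genome build and annotation are not given in the sources used here. The deposited values are CPM: every column sums to between 992528 and 1007024. Values step by what 1 read is worth, and 100% of those above 0 came out whole to within 0.05 reads. These recovered reads number 33527531 to 35122409 per library, and amplified reads without molecular identifiers are not independent molecules. A further 4 columns match no sample and were not used.

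log2(CPM + 1) was fitted in limma 3.58.1 (R 4.3.3, trended variance) with 1 mean per group over all 8 libraries. The 12129 genes that averaged 1 CPM or more were tested, with Benjamini-Hochberg adjustment over all of them and calls under an adjusted p of 0.05. edgeR 4.0.16 and DESeq2 1.42.0 on recovered reads, other pseudocounts, filters and scalings, a marker covariate, a replicate block and leaving out each library were alternatives. Full values go to the 6 called members per direction with the smallest p at each stage, to 3 per direction in the other comparisons, to textbook compartment markers, and to 3 genes per direction of each pathway list; RAB genes beyond these were named after their values were seen. The RAB genes, lists and tests were chosen with earlier results of these data known. The code was tested on simulated data. In the RefSeq table of ARS-UCD2.0, where all 46 symbols matched, 7 RAB genes (RAB1A, RAB1B, RAB5A, RAB17, RAB24, RAB27A and RAB37) overlap another protein-coding gene, and their counts are uncertain. 1 gene of the lists is not reported here by name.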

Additional observations from a re-analysis of the deposited data

Results flagged for a closer look

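RAB6A was singled out because the effect of editing differed between the stages by limma's test of the difference itself, at -1.23 on the log2 scale (adjusted p 0.0461). The call was lost with the replicate number as a block, and it held in 8 of 18 alternatives.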

How the results depend on the processing

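The calls rest on 2 pools per group. Every RAB call kept its direction in all alternatives, and the number of calls was less stable than the direction. The alternatives reuse the libraries in which the genes were called, so that a kept direction was largely fixed beforehand. With the marker level as a covariate 0 RAB genes were called at the 4-cell stage, at the 8-cell stage, for the average, for the difference between stages and for stage in controls, and 1 for stage in edited embryos. The 8-cell editing count of 7 became 4 with no filter on low values and 4 with quantile normalization. For the difference between stages (1) it was 2 with a pseudocount of 5 CPM, 0 without the filter, 0 with edgeR and 3 with DESeq2. For stage in controls (3) it was 0 without the filter, 5 with quantile normalization, 0 with edgeR and 0 with only the libraries compared. For stage in edited embryos (4) it was 2 with a pseudocount of 5 CPM, 0 without the filter, 2 with quantile normalization, 1 with edgeR and 7 with DESeq2. Fewer genes and libraries enter some of these fits; otherwise the cause was not tested.

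Leaving out each library in turn gave 13 to 20 calls at the 4-cell stage, 3 to 8 at the 8-cell stage, 15 to 22 for the average, 0 to 9 for the difference between stages, 0 to 9 for stage in controls and 0 to 4 for stage in edited embryos. The highest counts of both ranges that reach 9 came without the second 4-cell control library.

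The labels do not say what replicate numbers stand for, and the deviations of same-numbered libraries correlated at 0.11 and -0.09 across editing at the 4-cell and 8-cell stage and at -0.30 and 0.02 across stage in controls and edited embryos. With the replicate number as a block 18, 6, 18, 0, 3 and 1 RAB genes were called in the comparisons in the order above. Crossing the numbers for stage in controls, an alternative chosen after seeing the data, gave 4 calls.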
